A study of Mus musculus with 22 samples.

Results

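The comparison described here set distal colon RNA of 7 Winnie mice against that of 8 C57BL/6 mice, all 14 weeks old. Its members were all libraries with either name, 15 of the 22 in the series, and every gene in the count table was followed. C57BL/6 mice, labelled as wild type controls, were 4 males and 4 females. Winnie mice, which carry a germline missense mutation of Muc2 and develop chronic colitis spontaneously, were 3 males and 4 females. Each library came from 1 mouse, and the study took both groups from 1 breeding colony. The labels call the Winnie colon inflamed and name no agent given to either group. The segments gave RNA of epithelium, muscle, nerve and blood cells by their markers, so each library is a mixture of cells, and fewer cells of a type and less RNA per cell cannot be told apart. The comparison asks which genes, pathways and cell types differ once colitis is established, and how large the differences are beyond the few genes that pass a strict threshold.

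Muc2 encodes the gel-forming mucin that goblet cells fold and assemble in the endoplasmic reticulum and release as the mucus layer of the colon. In Winnie mice the misfolded precursor accumulates in goblet cells, the unfolded protein response is engaged, the mucus barrier is weakened, and bacteria come close to the epithelium. The gut wall answers such contact with chemokines, interferons, recruited myeloid cells and lymphocytes, secreted antibody and faster renewal of crypts, while muscle and nerve of the wall can also be affected by long inflammation.

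Libraries held 25.4 to 36.3 M counts, and 17289 of 46078 genes passed the filter on low counts. A count of 0 allows up to 3 counts, which came to 0.0825 to 0.118 CPM (counts scaled to a common library size) across libraries, for counting error only. CPM values are not divided by gene length, so they are compared between mice for 1 gene and not between genes. Within a group, replicate mice differed in log2 CPM by a median SD of 0.30 in Winnie and 0.27 in C57BL/6. The markers of the labelled tissue were detected, with 2 of them low in 1 library. Hoxb13 had from 16.4 to 612 CPM in C57BL/6 (median 424) and from 364 to 436 CPM in Winnie (median 409). Hoxb13 and Hoxd13 are homeobox genes used at the tail end of the gut. C57BL/6 replicate 7 alone was low, with 16.4 CPM against 377 to 612 CPM in the other C57BL/6 mice for Hoxb13 and 0.217 CPM against 132 to 288 CPM for Hoxd13. Hoxa13, a relative used in the same region, had 86.6 CPM in it, inside the 71.8 to 101.3 CPM of the other C57BL/6 mice. Hoxa11 and Hoxb6 were high in it, with 21.15 CPM against 4.05 to 5.65 CPM and 19.24 CPM against 1.88 to 7.56 CPM. Whether this library came from another segment of colon was not tested. In the same library Muc2 had 7901 CPM against 2505 to 3893 CPM. Its distance from the mean of the C57BL/6 group, as the root mean square difference in log2 CPM over tested genes, was 0.93, against 0.37 to 0.49 for the other 7. Winnie replicate 5 lay closest to the C57BL/6 mean, at 0.39, against 0.69 to 1.01 for the other 6 Winnie libraries. Both libraries are from females, and list counts and some gene changes that rest on them are given with and without them.

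The mutated gene was expressed in every mouse. Muc2 had from 2505 to 7901 CPM in C57BL/6 (median 2903) and from 1029 to 3254 CPM in Winnie (median 2045). The groups overlapped, although 5 of 7 Winnie libraries lay below every C57BL/6 library. The log2 fold change of Muc2 (ENSMUSG00000025515, chromosome 7, 141690340 to 141754693, plus strand) was -0.65 ± 0.29 (SE; adjusted p = 0.113), with a 95% interval of -1.27 to -0.02, so no difference in its level was called. Without C57BL/6 replicate 7 it was -0.37 ± 0.23 (SE; adjusted p = 0.231). A missense change leaves the count of a transcript readable, and counts do not show the base itself.

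At the limits the study set, an adjusted p under 0.001 and at least 1.5-fold (edgeR quasi-likelihood F test, Benjamini-Hochberg adjustment over all genes tested), 15 genes were higher in Winnie (0.0868% of genes tested) and 1 was lower (0.00578%). With the limit on adjusted p widened to 0.05 and the fold limit kept, 1282 were higher (7.42%) and 1475 lower (8.53%). Genes past this wider limit are said to rise, fall or be called in the text that follows, and lists of genes are read against these shares. The increases reached further than the decreases. Among genes called higher the median change was 2.05-fold, and 235 changed at least 4-fold and 96 at least 8-fold. Among genes called lower the median change was 1.97-fold, with 40 at least 4-fold and 6 at least 8-fold. The groups did not overlap for 80 genes above (0.463% of those tested) and 203 below (1.17%). No gene had an adjusted p below 0.000223, and before adjustment p was under 0.05 for 6901 genes.

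**Figure D1:**
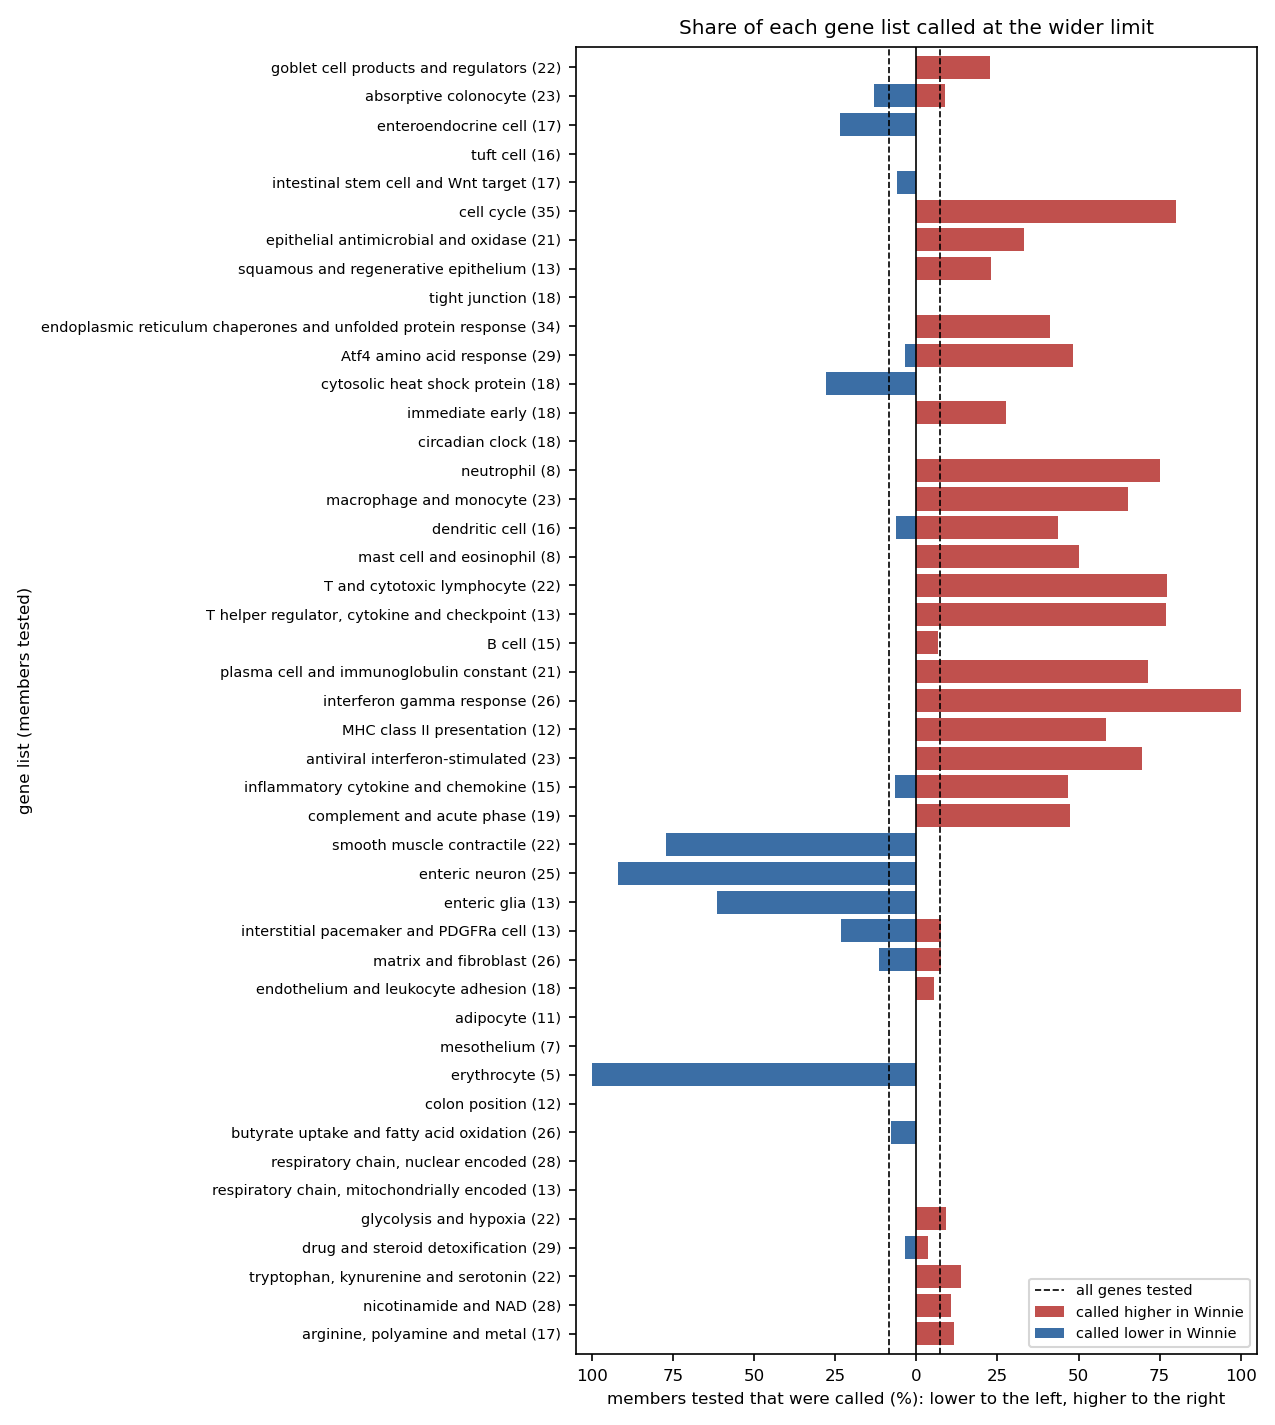
Share of the tested members of 45 gene lists that were called higher (red, to the right) or lower (blue, to the left) in 7 Winnie against 8 C57BL/6 mice, in percent, with the number tested in brackets. Dashed lines mark the shares over all genes tested, 7.42% higher and 8.53% lower; all 26 interferon gamma genes were called higher and 23 of 25 enteric neuron genes lower.

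Of the 16 genes past the strict limit, 5 are known from lymphocytes or antibody. Ctla4 had from 0.0317 to 0.298 CPM in C57BL/6 (median 0.227) and from 1.54 to 5.94 CPM in Winnie (median 2.36). Every Winnie mouse lay above every C57BL/6 mouse, and the highest C57BL/6 value was 0.298 CPM. Ctla4 (ENSMUSG00000026011, chromosome 1, 60887000 to 60915832, plus strand), the inhibitory receptor of activated and regulatory T cells, changed by 3.86 ± 0.37 (SE; adjusted p = 0.000223) on the log2 scale. Tnfrsf8 had from 0.326 to 1.99 CPM in C57BL/6 (median 0.993) and from 3.97 to 43.7 CPM in Winnie (median 22.1). The lowest Winnie value was that of replicate 5, and it still exceeded all C57BL/6 values. Tnfrsf8 (ENSMUSG00000028602, chromosome 4, 145267137 to 145315164, minus strand), the activation receptor CD30, changed by 4.495 ± 0.46 (SE; adjusted p = 0.000255). These were the genes with the smallest p-values, and they passed the strict limit in 12 and 10 of the 15 fits that each left out 1 library, while the other 14 did so in 2 to 6. All 16 passed the wider limit in 15 of 15. Prdm1 had from 2.83 to 9.68 CPM in C57BL/6 (median 5.23) and from 8.83 to 30.04 CPM in Winnie (median 22.8). Only Winnie replicate 5, at 8.83 CPM, lay within the C57BL/6 range. Prdm1 (ENSMUSG00000038151, chromosome 10, 44437177 to 44528501, minus strand), the regulator that completes plasma cell differentiation, rose by 2.04 ± 0.26 (SE; adjusted p = 0.000937). The immunoglobulin variable segments Ighv7-3 and Igkv4-57 rose by 3.605 ± 0.41 (SE; adjusted p = 0.000514) and 3.95 ± 0.504 (SE; adjusted p = 0.000937), with the caution that reads of related segments can be split between them.

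Cd177 and a pair of interferon genes were also called. Cd177 had from 37.5 to 84.7 CPM in C57BL/6 (median 43.97) and from 108 to 858 CPM in Winnie (median 285). The groups did not overlap, although C57BL/6 replicate 7 and Winnie replicate 5 lay nearest to each other. Cd177 (ENSMUSG00000052212, chromosome 7, 24743983 to 24760311, minus strand), known as a surface protein of neutrophils, rose by 3.14 ± 0.36 (SE; adjusted p = 0.000514). It did not follow the neutrophil genes S100a8 and Ltf in every mouse. Winnie replicate 4 had 279 CPM of Cd177, 0.169 CPM of S100a8 and 0.405 CPM of Ltf, and Winnie replicate 5 had 108, 0.0984 and 0.427 CPM, where S100a8 and Ltf lay within the C57BL/6 range. Iigp1 had from 2.77 to 7.05 CPM in C57BL/6 (median 4.13) and from 4.56 to 273 CPM in Winnie (median 222). Winnie replicate 5 sat inside the C57BL/6 range and the other 6 Winnie mice above it. Iigp1 (ENSMUSG00000054072, chromosome 18, 60376027 to 60392634, plus strand), a GTPase induced by interferon gamma against intracellular microbes, rose by 5.12 ± 0.66 (SE; adjusted p = 0.000937). Nlrc5 had from 1.74 to 6.63 CPM in C57BL/6 (median 2.62) and from 4.86 to 85.2 CPM in Winnie (median 40.3). The same Winnie library was again the only one within the C57BL/6 range. Nlrc5 (ENSMUSG00000074151, chromosome 8, 94434356 to 94527272, plus strand), the transactivator of MHC class I genes, rose by 3.88 ± 0.501 (SE; adjusted p = 0.000937).

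The other strict genes are best known from epithelium, secretion or stress. Clca4b had from 2.06 to 14.04 CPM in C57BL/6 (median 5.96) and from 10.8 to 2782 CPM in Winnie (median 769.8). This was the widest range in any group of the 16 genes, since Winnie replicate 5 had 10.8 CPM and the next lowest Winnie mouse 184 CPM. Clca4b (ENSMUSG00000074195, chromosome 3, 144910921 to 144932529, minus strand), a member of the family of secreted chloride channel accessory proteins, rose by 7.77 ± 0.95 (SE; adjusted p = 0.000776), the largest change among genes of the strict set. Agr2 had from 379 to 621 CPM in C57BL/6 (median 483) and from 801 to 1899 CPM in Winnie (median 1312). All Winnie mice exceeded all C57BL/6 mice. Agr2 (ENSMUSG00000020581, chromosome 12, 35992907 to 36004087, plus strand), the goblet cell disulfide isomerase that mucin folding requires, rose by 1.55 ± 0.19 (SE; adjusted p = 0.000776). Chac1 and Trib3, which are induced when the endoplasmic reticulum or amino acid supply is stressed, rose by 3.14 ± 0.41 and 1.77 ± 0.21 and are described with their pathway. Nucb2 (ENSMUSG00000030659, chromosome 7, 116504369 to 116540584, plus strand), the precursor of the peptide nesfatin, rose by 1.51 ± 0.196 (SE; adjusted p = 0.000937). Mgam (ENSMUSG00000068587, chromosome 6, 40628831 to 40769123, plus strand), a brush border enzyme of starch digestion, rose by 0.78 ± 0.096 (SE; adjusted p = 0.000783), the smallest change of the set, with values of 197 to 244 CPM in C57BL/6 and 257 to 439 CPM in Winnie. The groups overlapped for neither Nucb2 nor Mgam. Hspa1b had from 19.7 to 27.4 CPM in C57BL/6 (median 20.9) and from 7.73 to 13.1 CPM in Winnie (median 8.92). Hspa1b (ENSMUSG00000090877, chromosome 17, 34956436 to 34959238, minus strand), an inducible cytosolic chaperone, was the only strict gene to fall, by 1.05 ± 0.14 (SE; adjusted p = 0.000937), and every Winnie mouse lay below every C57BL/6 mouse.

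**Figure D2:**
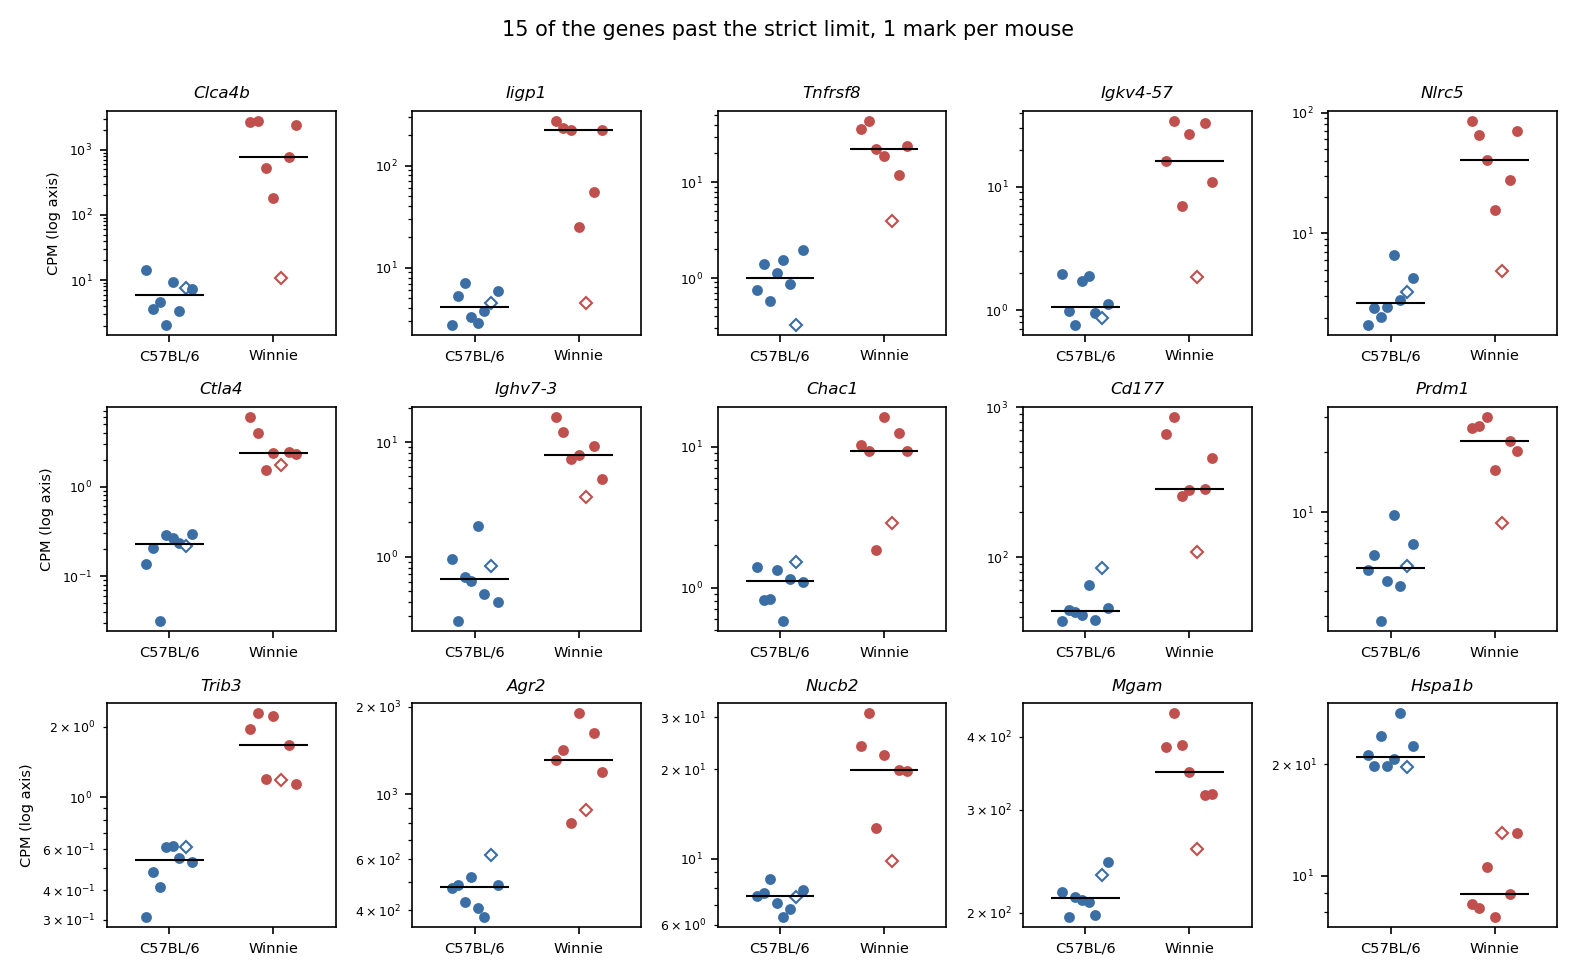
CPM (log axis) of 15 of the genes past the strict limit in 8 C57BL/6 (blue) and 7 Winnie (red) mice, 1 mark per mouse, with the group median as a line; open diamonds are C57BL/6 replicate 7 and Winnie replicate 5. In 10 of the 15 genes drawn the groups do not overlap, and for Clca4b, Iigp1, Nlrc5, Prdm1 and Igkv4-57 Winnie replicate 5 alone falls within the C57BL/6 range.

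Interferon gamma response genes rose in the whole list. All 26 genes of the list were called higher, with a median log2 fold change of 2.76, where 7.42% of all genes were called higher and the median of all genes was -0.01. Cxcl9 had from 0.127 to 1.54 CPM in C57BL/6 (median 0.596) and from 1.05 to 141 CPM in Winnie (median 17.7). Cxcl9, a chemokine that draws T cells, rose by 5.98 ± 0.81 (SE; adjusted p = 0.00103), and Winnie replicate 5 was the only Winnie library that overlapped C57BL/6. Without Winnie replicate 1 the change was 5.13 (adjusted p = 0.00201). Gbp2 had from 22.5 to 42.9 CPM in C57BL/6 (median 33.02) and from 36.8 to 1052 CPM in Winnie (median 377). Gbp2, a guanylate binding protein that attacks pathogen vacuoles, rose by 3.905 ± 0.52 (SE; adjusted p = 0.00103). Tgtp1 had from 0.325 to 0.857 CPM in C57BL/6 (median 0.578) and from 0.492 to 73.2 CPM in Winnie (median 42.7). Tgtp1, another interferon-inducible GTPase, rose by 5.96 ± 0.795 (SE; adjusted p = 0.00103). In these 2 genes too, 6 of 7 Winnie mice lay above every C57BL/6 mouse. B2m had from 291 to 474 CPM in C57BL/6 (median 405) and from 385 to 2065 CPM in Winnie (median 919). B2m, the light chain of MHC class I, rose by 1.64 ± 0.28 (SE; adjusted p = 0.00238), and Psmb10, a subunit of the immunoproteasome, by 1.16 ± 0.25 (SE; adjusted p = 0.00588). Irf1, the transcription factor that relays the signal, had 104 to 435 CPM in Winnie against 116 to 148 CPM in C57BL/6 and rose by 1.09 ± 0.22 (SE; adjusted p = 0.00497). The lowest Irf1 value of all 15 mice was that of Winnie replicate 5. Summed over the list, C57BL/6 mice had 717 to 936 CPM and Winnie mice 790.4 to 6658 CPM, with 6 of 7 above the C57BL/6 range.

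Promoters of this list were searched for the letters of the binding motifs of the factors that carry interferon signals, on both strands of the RefSeq promoter table (GRCm38.p6; 250 bases before to 50 after a start). Of the 26 genes, 19 had an entry. The letters GAAANNGAAA, the core of the interferon-stimulated response element, were found for 11 of 19 genes, against 3.99% of all 27025 genes with an entry. The letters TTCNNNGAA, the palindromic gamma activated sequence, were found for 7 of 19, against 9.55% of all. A match is a description of the letters and not of binding. The promoters of Gbp2 and Irf1 are shown as a case of each, chosen after the matches were seen, with the match in capitals. That of Gbp2 begins 59 bases before the start and is on the opposite strand, and that of Irf1, from the first of its 2 entries, begins 90 bases before the start.
Gbp2, chr3:142620413-142620712, plus strand: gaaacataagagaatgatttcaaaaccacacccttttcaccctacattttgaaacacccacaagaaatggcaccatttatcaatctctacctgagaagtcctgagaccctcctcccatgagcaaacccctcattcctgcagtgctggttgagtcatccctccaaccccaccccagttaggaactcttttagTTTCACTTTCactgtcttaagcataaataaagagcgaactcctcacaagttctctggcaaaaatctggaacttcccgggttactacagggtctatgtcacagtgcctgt
Irf1, chr11:53769764-53770063, plus strand: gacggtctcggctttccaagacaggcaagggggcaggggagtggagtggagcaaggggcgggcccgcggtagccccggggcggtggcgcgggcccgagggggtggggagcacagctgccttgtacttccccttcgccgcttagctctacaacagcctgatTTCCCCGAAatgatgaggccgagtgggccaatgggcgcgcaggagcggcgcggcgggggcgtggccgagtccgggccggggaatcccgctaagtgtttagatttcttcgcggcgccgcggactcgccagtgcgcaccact

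MHC class II presentation and antiviral genes rose in part of each list. Of 12 MHC class II genes tested, 7 were called higher and none lower, with a median log2 fold change of 2.23. Cd74 had from 57.8 to 421 CPM in C57BL/6 (median 180.3) and from 264 to 3211 CPM in Winnie (median 1811). Cd74, the invariant chain that escorts class II molecules, rose by 3.11 ± 0.52 (SE; adjusted p = 0.00209), and 5 Winnie mice lay above all C57BL/6 mice. H2-Ab1 had from 34.5 to 174 CPM in C57BL/6 (median 84.5) and from 116 to 993 CPM in Winnie (median 545). H2-Ab1, a class II beta chain, rose by 2.56 ± 0.42 (SE; adjusted p = 0.00194), and H2-DMb1, a subunit of the peptide-loading chaperone, by 3.34 ± 0.501 (SE; adjusted p = 0.00132). Ctss, the cathepsin that trims the invariant chain, had similar medians of 383 and 347 CPM and a log2 change of -0.04 ± 0.12 (SE; adjusted p = 0.849). Of 23 antiviral genes that respond to interferons of several kinds, 16 were called higher and none lower, and all 23 had a positive log2 fold change, with a median of 1.15. Oasl2 had from 12.9 to 93.6 CPM in C57BL/6 (median 27.97) and from 35.2 to 272 CPM in Winnie (median 135). Oasl2, of the oligoadenylate synthetase family, rose by 2.01 ± 0.42 (SE; adjusted p = 0.00574), Ifi44 by 2.699 ± 0.47, Ifit2 by 2.25 ± 0.43 and Parp9 by 1.13 ± 0.195. Of 7 Winnie mice, 6 exceeded the C57BL/6 range for Oasl2, Ifi44 and Parp9, and 5 for Ifit2. Winnie replicates 1, 2 and 7 each had 15 of the 16 called antiviral genes above the C57BL/6 range and 7 of the 7 called MHC class II genes. Winnie replicate 3 had 10 of 16 and 7 of 7, replicate 4 had 16 of 16 and 3 of 7, and replicate 6 had 7 of 16 and 6 of 7. Winnie replicate 5 had 0 of both.

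Genes of myeloid cells rose in part of each list. Of the 23 neutrophil genes listed, 8 passed the filter on low counts and 6 were called higher. A gene near 0 in C57BL/6 could pass that filter only through its Winnie libraries, so the 6 of 8 is no share of the list, here or in the other lists that passed in part. In males 13 of the 23 passed and 11 were called, and in females without Winnie replicate 5 and C57BL/6 replicate 7, 9 passed and 3 were called. S100a8 had from 0.0342 to 0.617 CPM in C57BL/6 (median 0.1103) and from 0.0984 to 36.2 CPM in Winnie (median 2.39). S100a8, a subunit of calprotectin, rose by 5.28 ± 1.08 (SE; adjusted p = 0.00497), and 5 of 7 Winnie mice were above every C57BL/6 mouse. Ltf had from 0.109 to 0.581 CPM in C57BL/6 (median 0.359) and from 0.405 to 28.4 CPM in Winnie (median 2.43). Ltf, the iron-binding lactoferrin of neutrophil granules, rose by 4.63 ± 0.83 (SE; adjusted p = 0.00291), and Csf3r, the receptor for granulocyte growth factor, by 3.23 ± 0.69 (SE; adjusted p = 0.00599). Winnie replicate 2 was the highest for all 3, and without it the changes were 4.03 (adjusted p = 0.012) for S100a8, 4.04 (adjusted p = 0.00633) for Ltf and 1.84 (adjusted p = 0.00781) for Csf3r. Of 23 macrophage and monocyte genes, 15 were called higher and none lower, with a median of 0.74. Cd14 had from 17.8 to 29.4 CPM in C57BL/6 (median 21.6) and from 32.2 to 90.9 CPM in Winnie (median 52.4). Cd14, a co-receptor for bacterial lipopolysaccharide, rose by 1.44 ± 0.21 (SE; adjusted p = 0.00128) without overlap between groups. Fcgr1 had from 0.616 to 1.397 CPM in C57BL/6 (median 1.11) and from 1.02 to 6.38 CPM in Winnie (median 3.05). Fcgr1, the high-affinity receptor for IgG, rose by 1.78 ± 0.29 (SE; adjusted p = 0.002), and Fcgr4 by 2.66 ± 0.395 (SE; adjusted p = 0.00132). C1qa, a complement component made by resident macrophages, rose by 0.74 ± 0.197 (SE; adjusted p = 0.0151), while Lyz2, lysozyme of myeloid cells, had a log2 change of 0.26 ± 0.22 (SE; adjusted p = 0.4). Of 16 dendritic cell genes, 7 were called higher and 1, Cd209a, lower. The 7 became 4 without C57BL/6 replicate 1, 2 or 3 and 3 without Winnie replicate 1 or 2, and the 1 was lost in 8 of the 15 fits that each left out 1 library (C57BL/6 replicates 1, 3, 4 and 8 and Winnie replicates 1, 2, 4 and 7). Irf8 rose by 0.94 ± 0.17 and Ccl22 by 1.74 ± 0.404. Of 16 mast cell and eosinophil genes, 8 passed the filter and 4 were called higher. Mcpt1 had from 0.199 to 0.786 CPM in C57BL/6 (median 0.428) and from 0.834 to 3.91 CPM in Winnie (median 2.005). Mcpt1, a protease of mucosal mast cells, rose by 2.26 ± 0.39 (SE; adjusted p = 0.00246), and all 7 Winnie mice were above C57BL/6, whereas Kit, which mast cells share with pacemaker cells, had -0.46 ± 0.200 (SE; adjusted p = 0.101).

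Genes of inflammatory messengers rose in part. Of 26 cytokines and chemokines listed, 15 passed the filter, 7 of them were called higher and 1, Il33, lower, the last not without Winnie replicate 1 or 6. Il1b had from 0.239 to 2.12 CPM in C57BL/6 (median 0.746) and from 1.97 to 51.4 CPM in Winnie (median 5.94). Il1b, the pyrogenic interleukin 1 beta, rose by 3.77 ± 0.66 (SE; adjusted p = 0.00245), and only Winnie replicate 5 lay within the C57BL/6 range. Without Winnie replicate 2, the highest, the change was 2.65 (adjusted p = 0.00254). Lif had from 1.504 to 3.62 CPM in C57BL/6 (median 2.57) and from 3.77 to 10.8 CPM in Winnie (median 6.46). Lif, a cytokine of the interleukin 6 family, rose by 1.502 ± 0.25 (SE; adjusted p = 0.00209), with no overlap. Socs3, the feedback inhibitor of that family, rose by 1.96 ± 0.34 (SE; adjusted p = 0.00246), and Ccl8, a monocyte chemokine, by 2.81 ± 0.46 (SE; adjusted p = 0.00186). Of 19 complement and acute phase genes, 9 were called higher and none lower. Lrg1 had from 1.41 to 2.66 CPM in C57BL/6 (median 1.83) and from 2.398 to 214 CPM in Winnie (median 3.78). Lrg1, a glycoprotein of the acute phase, rose by 4.39 ± 0.92 (SE; adjusted p = 0.00548), and C4b, the fourth complement component, by 1.31 ± 0.27 (SE; adjusted p = 0.00545). Without Winnie replicate 2 the change of Lrg1 was 2.55 (adjusted p = 0.0105). C3, the central complement component, had -0.37 ± 0.46 (SE; adjusted p = 0.575).

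T cell genes rose in most of the list, with some Winnie mice high and others near C57BL/6. Of 22 genes of T and cytotoxic lymphocytes, 17 were called higher, none lower, and all 22 log2 fold changes were positive, with a median of 1.44. Winnie replicates 1, 2 and 7 had 17, 16 and 14 of the 17 above the C57BL/6 range, and replicates 3, 4, 5 and 6 had 6, 3, 1 and 6. In males alone 23 of 23 were called higher, and in females without Winnie replicate 5 and C57BL/6 replicate 7, 1 of 21. Cd28 had from 0.543 to 1.697 CPM in C57BL/6 (median 1.25) and from 2.198 to 5.25 CPM in Winnie (median 2.96). Cd28, the costimulatory receptor of T cells, rose by 1.59 ± 0.28 (SE; adjusted p = 0.00245), and all Winnie mice were above all C57BL/6 mice. Gzmb had from 0.0635 to 0.444 CPM in C57BL/6 (median 0.259) and from 0.197 to 5.75 CPM in Winnie (median 1.81). Gzmb, the granzyme of killer cells, rose by 3.200 ± 0.62 (SE; adjusted p = 0.00406), and 5 of 7 Winnie mice lay above C57BL/6. Cd4 rose by 1.43 ± 0.35 (SE; adjusted p = 0.0106), and Lck, the kinase at the T cell receptor, by 0.898 ± 0.26 (SE; adjusted p = 0.0227). The call of Lck was lost without Winnie replicate 1 or 2. Of 24 genes of T helper regulators, cytokines and checkpoints, 13 passed the filter and 10 were called higher. In males 13 of 16 tested were called higher, with a median of 2.90. In females without Winnie replicate 5 and C57BL/6 replicate 7, 3 of 13 were, with a median of 0.53. Foxp3 had from 0.0725 to 0.887 CPM in C57BL/6 (median 0.221) and from 0.591 to 2.595 CPM in Winnie (median 0.964). Foxp3, the factor that defines regulatory T cells, rose by 2.26 ± 0.46 (SE; adjusted p = 0.0048), Icos by 1.93 ± 0.45 and Tnfrsf9 by 2.41 ± 0.45. Bcl6, which is not restricted to T cells, had a log2 change of 0.02 ± 0.17 (SE; adjusted p = 0.93). Of 7 tested constant segments of the T cell receptor, 6 were called higher.

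Antibody genes rose in most of their list, and 1 of 15 B cell genes was called. The difference between these lists was not tested. Of 21 genes of plasma cells and immunoglobulin constant regions, 15 were called higher and none lower, with a median log2 fold change of 1.73. Igha had from 248 to 1185 CPM in C57BL/6 (median 538) and from 1349 to 5476 CPM in Winnie (median 3398). Igha, the heavy chain of IgA, rose by 2.48 ± 0.402 (SE; adjusted p = 0.00186), and no Winnie mouse overlapped C57BL/6. Igkc had from 211 to 1018 CPM in C57BL/6 (median 465) and from 1223 to 5062 CPM in Winnie (median 2807). Igkc, the kappa light chain, rose by 2.52 ± 0.41 (SE; adjusted p = 0.00186), and Jchain, which joins IgA dimers, by 2.09 ± 0.39 (SE; adjusted p = 0.0035). Ighg2c had from 0.0952 to 0.596 CPM in C57BL/6 (median 0.235) and from 0.0771 to 34.4 CPM in Winnie (median 0.919). Ighg2c, a heavy chain of IgG, rose by 4.92 ± 1.05 (SE; adjusted p = 0.006), but 1 Winnie mouse was below every C57BL/6 mouse and 6 were above. Without Winnie replicate 2, the highest, the change was 3.85 (adjusted p = 0.0152). Ighg3 rose by 2.94 ± 0.48 (SE; adjusted p = 0.00186) in all 7. Of 218 variable segments of immunoglobulin, 124 passed the filter and none of these was called lower. Their summed CPM ran from 75.1 to 425 CPM in C57BL/6 and from 334 to 2272 CPM in Winnie. Sdc1, a surface marker of plasma cells that epithelium also makes, had -0.04 ± 0.17 (SE; adjusted p = 0.885). Of 15 B cell genes, 1 was called higher, Cd38, which many cells express, and the median was -0.09. Cd79a had from 0.725 to 51.96 CPM in C57BL/6 (median 12.7) and from 3.59 to 26.6 CPM in Winnie (median 21.1). Cd79a, of the B cell receptor, had a log2 change of 0.21 ± 0.58 (SE; adjusted p = 0.806), with a 95% interval of -1.01 to 1.44. Cr2, a receptor for complement on B cells, had 0.399 CPM against 3.55 to 42.2 CPM in C57BL/6 replicate 7 and the other C57BL/6 mice, so the control mice differed widely among themselves.

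Chaperones of the endoplasmic reticulum rose in part, by modest amounts. Of 34 genes of this list, 14 were called higher, none lower, and all 34 log2 fold changes were positive, with a median of 0.56. With library size alone as the scaling, 9 were called higher. Derl3 had from 0.507 to 2.24 CPM in C57BL/6 (median 1.301) and from 2.47 to 10.3 CPM in Winnie (median 7.43). Derl3, which moves misfolded proteins out for degradation, rose by 2.45 ± 0.37 (SE; adjusted p = 0.00132), and the groups did not overlap. Calr had from 637 to 853 CPM in C57BL/6 (median 690.2) and from 654 to 1516 CPM in Winnie (median 1125). Calr, the calcium-binding lectin chaperone calreticulin, rose by 0.72 ± 0.15 (SE; adjusted p = 0.00537), and 5 of 7 Winnie mice were above all C57BL/6 mice. Herpud1 had from 69.7 to 168 CPM in C57BL/6 (median 117) and from 152 to 256 CPM in Winnie (median 220.4). Herpud1, of the degradation machinery, rose by 0.92 ± 0.18 (SE; adjusted p = 0.00413), and Ckap4, a membrane protein of the rough endoplasmic reticulum, by 1.61 ± 0.25 (SE; adjusted p = 0.00172). Pdia3, a disulfide isomerase, rose by 0.604 ± 0.13 (SE; adjusted p = 0.00628), just past the fold limit, and P4hb, another, at 0.58 ± 0.12 (SE; adjusted p = 0.00501), did not reach it. Pdia3 kept its call in 10 of 15 fits that left out 1 library, and not without C57BL/6 replicate 5 or 7 or Winnie replicate 1, 2 or 7. The other called members, named here so that all 14 are given, were Hspa5, Hsp90b1, Pdia4, Pdia6, Sdf2l1, Creld2, Manf, Hyou1 and Ssr2, of which Hsp90b1 was not called without Winnie replicate 2. Plasma cells and goblet cells both need these chaperones, and the plasma cell and antibody list summed to 818.6 to 3069 CPM in C57BL/6 and 3299 to 12820 CPM in Winnie, above C57BL/6 in all 7. The part of those cells in the result was not tested. Summed over the list, C57BL/6 mice had 4426 to 5289 CPM and Winnie mice 4678 to 8789 CPM, with 6 of 7 above the C57BL/6 range.

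The endoplasmic reticulum stress response element, a CCAAT box and CCACG at a fixed distance (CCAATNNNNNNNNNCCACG, both strands), was found in the promoter of 9 of the 27 list genes with an entry, against 0.137% of all genes. Among the called members with an entry it was found for 6 of 11. The promoters of Derl3 and Calr are shown, chosen after the matches were seen, with the match in capitals. It lies on the opposite strand in both and begins 156 and 162 bases before the start.
Derl3, chr10:75893148-75893447, plus strand: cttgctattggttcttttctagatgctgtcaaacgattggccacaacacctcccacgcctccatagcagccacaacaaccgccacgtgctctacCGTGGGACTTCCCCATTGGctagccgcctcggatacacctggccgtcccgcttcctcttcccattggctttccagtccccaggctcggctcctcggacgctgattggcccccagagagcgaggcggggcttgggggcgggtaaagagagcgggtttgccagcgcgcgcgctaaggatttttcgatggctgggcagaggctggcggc
Calr, chr8:84846882-84847181, minus strand: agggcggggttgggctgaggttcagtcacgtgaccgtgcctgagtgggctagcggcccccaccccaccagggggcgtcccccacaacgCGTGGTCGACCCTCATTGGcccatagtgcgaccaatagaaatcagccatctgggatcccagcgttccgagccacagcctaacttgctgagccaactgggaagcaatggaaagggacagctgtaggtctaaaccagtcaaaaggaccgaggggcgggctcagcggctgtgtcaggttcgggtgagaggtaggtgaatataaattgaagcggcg

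Genes of the Atf4 branch, which answers both misfolded protein and amino acid shortage, rose in part. Of 29, 14 were called higher and 1, the transporter Slc7a3, lower, with a median log2 fold change of 0.79. Chac1 had from 0.579 to 1.52 CPM in C57BL/6 (median 1.12) and from 1.85 to 16.2 CPM in Winnie (median 9.31). Chac1 (ENSMUSG00000027313, chromosome 2, 119351229 to 119354381, plus strand), which degrades glutathione, rose by 3.14 ± 0.41 (SE; adjusted p = 0.000959), with no overlap. Trib3 had from 0.307 to 0.617 CPM in C57BL/6 (median 0.5403) and from 1.14 to 2.27 CPM in Winnie (median 1.67). Trib3 (ENSMUSG00000032715, chromosome 2, 152337422 to 152344032, minus strand), a pseudokinase that restrains the response, rose by 1.77 ± 0.21 (SE; adjusted p = 0.000776), again with all Winnie mice above. Psat1 had from 5.11 to 10.98 CPM in C57BL/6 (median 7.099) and from 9.52 to 33.8 CPM in Winnie (median 15.8). Psat1 and Phgdh, enzymes of serine synthesis, rose by 1.41 ± 0.22 (SE; adjusted p = 0.00164) and 1.52 ± 0.25 (SE; adjusted p = 0.00186). Atf4 itself had from 131 to 165 CPM in C57BL/6 (median 148) and from 127 to 195 CPM in Winnie (median 154), and its log2 change of 0.18 ± 0.104 (SE; adjusted p = 0.2) was not called. Atf4 is regulated mainly at translation, which RNA counts do not show. The letters TGATGNAA, the core of the response element shared by Atf4 and its partners, were found for 9 of 24 list genes with an entry and for 6 of the 12 called members with one, against 4.51% of all genes. The promoters of Chac1 and Trib3 hold one match each, in capitals, both on the opposite strand, 193 bases before and 14 bases past the start.
Chac1, chr2:119350992-119351291, plus strand: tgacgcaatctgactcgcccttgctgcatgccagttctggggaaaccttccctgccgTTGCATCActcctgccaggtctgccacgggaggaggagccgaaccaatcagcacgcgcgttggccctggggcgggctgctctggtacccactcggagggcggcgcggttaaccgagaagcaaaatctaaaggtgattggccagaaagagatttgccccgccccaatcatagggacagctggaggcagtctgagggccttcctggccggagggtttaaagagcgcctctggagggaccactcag
Trib3, chr2:152344011-152344310, minus strand: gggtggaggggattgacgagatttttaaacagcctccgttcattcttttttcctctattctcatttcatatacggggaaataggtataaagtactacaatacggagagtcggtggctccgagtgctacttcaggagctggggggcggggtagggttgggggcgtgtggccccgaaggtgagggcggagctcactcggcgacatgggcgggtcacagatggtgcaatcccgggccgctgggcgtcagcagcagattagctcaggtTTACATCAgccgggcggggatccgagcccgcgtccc

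Goblet cell genes did not move as a block. Of 22, 5 were called higher and none lower, with a median of 0.17. In males alone 5 of 21 were called higher and 5 lower, with a median of -0.15. Of all genes 11.8% were called higher and 10.7% lower in that fit. In females without Winnie replicate 5 and C57BL/6 replicate 7, 7 of 22 were called higher and none lower, with a median of 0.42. The shares of all genes there were 5.86% higher and 8.06% lower. Spink4 had from 144 to 250.2 CPM in C57BL/6 (median 212) and from 202 to 561 CPM in Winnie (median 419.7). Spink4, a secreted peptide of goblet cells, rose by 1.07 ± 0.202 (SE; adjusted p = 0.00361), and 6 of 7 Winnie mice were above the C57BL/6 range. Galnt3 and C1galt1, which start and extend O-linked sugars on mucins, rose by 0.94 ± 0.21 (SE; adjusted p = 0.00722) and 0.69 ± 0.17 (SE; adjusted p = 0.0104), and Muc13, a membrane mucin, by 0.59 ± 0.16 (SE; adjusted p = 0.0145). Muc13 kept its call in 9 of 15 such fits, and not without C57BL/6 replicate 2, 5, 6 or 8 or Winnie replicate 1 or 7. Zg16 and Fcgbp, abundant proteins of mucus, had 0.402 ± 0.399 (SE; adjusted p = 0.476) and 0.25 ± 0.34 (SE; adjusted p = 0.612). Their Winnie values lay on both sides of the C57BL/6 median, with Fcgbp at 1978 to 7768 CPM in Winnie.

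Cytosolic heat shock genes fell in part and immediate early genes rose in part. Of 18 heat shock genes, 5 were called lower and none higher, with a median of 0.07. Hspa1a had from 6.803 to 9.13 CPM in C57BL/6 (median 7.196) and from 2.31 to 4.92 CPM in Winnie (median 4.29). Hspa1a, the neighbour of Hspa1b and nearly identical to it in sequence, fell by 0.91 ± 0.16 (SE; adjusted p = 0.00272), with no overlap, and Hspb8 and Cryab, small chaperones abundant in muscle, by 0.898 ± 0.19 (SE; adjusted p = 0.00613) and 1.05 ± 0.23 (SE; adjusted p = 0.00733). The fifth was Hspb1. The constitutive members Hspa8 and Hsp90ab1 had 0.16 ± 0.09 (SE; adjusted p = 0.232) and 0.05 ± 0.09 (SE; adjusted p = 0.71). The heat shock element GAANNTTCNNGAA was found for 4 of 14 list genes with an entry and for 0 of the 4 called members with one, against 0.662% of all genes. Of 18 immediate early genes, 5 were called higher, and 3 without C57BL/6 replicate 2 or 6 or Winnie replicate 6 or 7. In males alone 2 were called higher and 1 lower, with a median of 0.04. In females without Winnie replicate 5 and C57BL/6 replicate 7, 7 were called higher and none lower, with a median of 0.73. Fos had from 83.8 to 214 CPM in C57BL/6 (median 141) and from 106 to 934 CPM in Winnie (median 457). Fos, a transcription factor subunit made within minutes of a stimulus, rose by 1.78 ± 0.395 (SE; adjusted p = 0.00706), and Fosb by 2.11 ± 0.53 (SE; adjusted p = 0.0123). The highest Fos value was that of Winnie replicate 5, the library otherwise closest to C57BL/6. Of 18 clock genes none was called, in either direction, with all 15 libraries. In females without Winnie replicate 5 and C57BL/6 replicate 7, 5 of 18 were called lower, where 8.06% of all genes were.

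Proliferation genes rose in most of the list. Of 35 cell cycle genes, 28 were called higher, none lower, and all 35 were positive, with a median log2 fold change of 0.99. Mki67 had from 47.3 to 115 CPM in C57BL/6 (median 91.5) and from 99.1 to 332 CPM in Winnie (median 158). Mki67, the marker of cycling cells, rose by 1.22 ± 0.25 (SE; adjusted p = 0.00521), and 5 of 7 Winnie mice were above all C57BL/6 mice. Ccna2 had from 21.98 to 55.7 CPM in C57BL/6 (median 39.2) and from 47.8 to 120.0 CPM in Winnie (median 91.96). Ccna2, the cyclin of DNA replication, rose by 1.19 ± 0.204 (SE; adjusted p = 0.00236), Kif11, a motor of the spindle, by 1.17 ± 0.200 (SE; adjusted p = 0.00235), and Foxm1, the factor that switches on mitotic genes, by 1.37 ± 0.25 (SE; adjusted p = 0.003). Pcna, at 0.37 ± 0.12 (SE; adjusted p = 0.0322), passed the p limit and not the fold limit. Of 17 stem cell and Wnt target genes, 1 was called, Ascl2, lower by 0.65 ± 0.199 (SE; adjusted p = 0.0265) but not without C57BL/6 replicate 2 or 4 or Winnie replicate 2, 4 or 6, and for 10 the 95% interval lay within 1.5-fold in either direction. Lrig1 was among the abundant members, at 0.08 ± 0.101 (SE; adjusted p = 0.598).

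Epithelial defence genes rose in part. Of 21 antimicrobial and oxidase genes, 7 were called higher and none lower, with a median of 0.29. Nox1 had from 7.79 to 20.9 CPM in C57BL/6 (median 10.7) and from 25.4 to 134 CPM in Winnie (median 56.7). Nox1, the NADPH oxidase of colon epithelium, rose by 2.35 ± 0.34 (SE; adjusted p = 0.00125), and the groups did not overlap. Slpi had from 4.41 to 17.1 CPM in C57BL/6 (median 9.75) and from 8.43 to 293 CPM in Winnie (median 92.5). Slpi, a secreted protease inhibitor, rose by 3.65 ± 0.53 (SE; adjusted p = 0.00128), with Winnie replicate 5 the only Winnie mouse in the C57BL/6 range. Nos2 had from 0.984 to 8.85 CPM in C57BL/6 (median 2.87) and from 2.36 to 289 CPM in Winnie (median 54.1). Nos2, the inducible nitric oxide synthase, rose by 4.86 ± 0.83 (SE; adjusted p = 0.00236). Without Winnie replicate 1 its change was 4.25 (adjusted p = 0.00582). Sprr2h had from 0.0386 to 0.547 CPM in C57BL/6 (median 0.1201) and from 0.295 to 51.04 CPM in Winnie (median 11.6). Sprr2h, a small proline-rich protein, rose by 6.27 ± 0.97 (SE; adjusted p = 0.00162). The other 3 were Duox2, Duoxa2 and Lcn2. Pigr, which carries IgA across the epithelium, had 0.23 ± 0.12 (SE; adjusted p = 0.169), and Saa1, an acute phase protein made by the colon, -0.36 ± 0.303 (SE; adjusted p = 0.394). Of 20 squamous and regenerative genes, 13 passed the filter and 3 were called higher. Ly6a had from 138 to 263 CPM in C57BL/6 (median 198) and from 235 to 1761 CPM in Winnie (median 1013). Ly6a, a marker of repairing crypts that lymphocytes and endothelium also express, rose by 2.45 ± 0.35 (SE; adjusted p = 0.00125), Anxa1, a resolving annexin, by 0.95 ± 0.18 (SE; adjusted p = 0.00353) and Krt13, a keratin of stratified epithelium, by 3.28 ± 0.78 (SE; adjusted p = 0.00951). Krt13 had from 0.0362 to 0.629 CPM in C57BL/6 (median 0.201) and from 0.193 to 10.7 CPM in Winnie (median 0.777). Winnie replicate 2 was the highest, and without it the change of Krt13 was 1.82 (adjusted p = 0.0215). The 3 calls were 5 without C57BL/6 replicate 7 or Winnie replicate 3 or 5.

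Mature epithelial types changed in few members. Of 23 colonocyte genes, 2 were called higher and 3 lower, near the shares over all genes. Car2 had from 762 to 1812 CPM in C57BL/6 (median 1499) and from 342 to 1334 CPM in Winnie (median 689.7). Car2, a carbonic anhydrase of colonocytes, fell by 0.81 ± 0.25 (SE; adjusted p = 0.03), and Sult1a1, a sulfotransferase, by 0.93 ± 0.23 (SE; adjusted p = 0.0109). Car2 kept its call in 9 of 15 fits that left out 1 library, and not without C57BL/6 replicate 2, 6 or 8 or Winnie replicate 1, 6 or 7. Krt20, a keratin of surface cells, rose by 1.07 ± 0.34 (SE; adjusted p = 0.0322) but kept its call in 5 of 15 such fits, and not without any of C57BL/6 replicates 2 to 6 and 8 and Winnie replicates 1, 2, 6 and 7. Krt20 had 2170 CPM in C57BL/6 replicate 7 and 442.8 to 811.6 CPM in the other C57BL/6 mice. The 2 increases of the list were 4 without C57BL/6 replicate 7 and 0 or 1 without any 1 of 12 other libraries (C57BL/6 replicates 1 to 6 and 8, Winnie replicates 1, 2, 4, 6 and 7). Slc26a3, the chloride exchanger, had -0.53 ± 0.34 (SE; adjusted p = 0.264). Of 17 enteroendocrine genes, 4 were called lower, Cpe, Scg3, Scgn and Sst, and 2 without Winnie replicate 1 or 2. Cpe had from 94.9 to 269 CPM in C57BL/6 (median 112) and from 33.8 to 109 CPM in Winnie (median 51.3). C57BL/6 replicate 7 had 268.9 CPM of Cpe and 29.56 CPM of Sst. The other C57BL/6 mice had 94.87 to 136 CPM and 3.968 to 13.01 CPM. Cpe, which processes peptide hormones in endocrine cells and neurons, fell by 1.096 ± 0.26 (SE; adjusted p = 0.0099), and Sst, somatostatin, also made by enteric neurons, by 1.24 ± 0.38 (SE; adjusted p = 0.027). The call of Sst was also lost without Winnie replicate 7, and Scgn kept its call in 9 of 15 fits that left out 1 library, with losses without C57BL/6 replicate 4 or 6 or Winnie replicate 1, 2, 3 or 4. Chga and Chgb, granins of endocrine cells, had -0.32 ± 0.16 (SE; adjusted p = 0.143) and 0.09 ± 0.16 (SE; adjusted p = 0.678), and Pyy 0.41 ± 0.21 (SE; adjusted p = 0.154). Of 16 tuft cell genes none was called. Of 18 tight junction genes none was called either, and for 12 the interval lay within 1.5-fold.

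Contractile genes of smooth muscle were lower, with calls that depended on single mice. Of 22, 17 were called lower, none higher, and all 22 log2 fold changes were negative, with a median of -0.84. Tagln had from 1503 to 2154 CPM in C57BL/6 (median 1958) and from 566 to 1415 CPM in Winnie (median 707). Tagln, an actin-binding protein of smooth muscle, fell by 0.93 ± 0.21 (SE; adjusted p = 0.00706), and no Winnie mouse overlapped C57BL/6. Acta2 had from 1313 to 2167 CPM in C57BL/6 (median 1699) and from 418 to 1551 CPM in Winnie (median 719). Acta2, smooth muscle actin, fell by 0.84 ± 0.22 (SE; adjusted p = 0.0152), with 5 of 7 Winnie mice below all C57BL/6 mice. Cnn1 had from 464 to 1036 CPM in C57BL/6 (median 585) and from 135 to 521 CPM in Winnie (median 223). Cnn1, calponin, fell by 1.01 ± 0.24 (SE; adjusted p = 0.00946), and Myh11, the myosin heavy chain, by 0.86 ± 0.29 (SE; adjusted p = 0.0403), a call kept in 6 of 15 fits that left out 1 library and lost without C57BL/6 replicate 3, 4, 5, 6 or 7 or Winnie replicate 1, 2, 4 or 6. Summed over the list, C57BL/6 replicate 7 was the highest of all mice at 22230 CPM, the other C57BL/6 mice had 11670 to 15600 CPM and the Winnie mice 3845 to 13610 CPM. Without that library 12 of the 22 were called lower, where 8.14% of all genes were, and the median was -0.73. The count was 7 without Winnie replicate 1, 9 without replicate 2 and 11 without replicate 4 or 6. In males alone it was 5 of 22, with a median of -0.64, where 10.7% of all genes were called lower. In females without Winnie replicate 5 and C57BL/6 replicate 7 it was 7 of 22, with a median of -1.03, where 8.06% were. Winnie replicate 3, with 26 of 26 interferon gamma genes above the C57BL/6 range, had 2 of the 17 called muscle genes below it. Leukocyte and antibody RNA rose in the same group, and its part in the lower muscle values was not tested.

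Neuronal genes of the enteric nervous system fell in nearly every member and glial genes in part. Of 25 neuronal genes, 23 were called lower and none higher, with a median of -1.21. Nefl had from 5.83 to 15.2 CPM in C57BL/6 (median 7.25) and from 1.27 to 5.15 CPM in Winnie (median 2.01). Nefl, a neurofilament, fell by 1.49 ± 0.29 (SE; adjusted p = 0.00413), and no Winnie mouse overlapped C57BL/6. Stmn2 had from 18.8 to 40.3 CPM in C57BL/6 (median 23.7) and from 5.695 to 18.9 CPM in Winnie (median 10.4). Stmn2, a growth cone protein of neurons, fell by 1.21 ± 0.22 (SE; adjusted p = 0.0034). Vip had from 18.1 to 48.8 CPM in C57BL/6 (median 31.6) and from 9.07 to 29.04 CPM in Winnie (median 11.6). Vip, the peptide of inhibitory motor and secretomotor neurons, fell by 1.15 ± 0.25 (SE; adjusted p = 0.00618). Nos1 had from 14.3 to 66.4 CPM in C57BL/6 (median 30.1) and from 3.16 to 27.2 CPM in Winnie (median 11.9). Nos1, the nitric oxide synthase of inhibitory motor neurons, fell by 1.44 ± 0.38 (SE; adjusted p = 0.0149). In these 3 genes 5 or 6 Winnie mice were below every C57BL/6 mouse, and Winnie replicate 5 had 29.04 CPM of Vip where the other 6 had 9.07 to 14.2 CPM. Tac1, the precursor of substance P, was an exception at 0.35 ± 0.31 (SE; adjusted p = 0.42), with Winnie values of 9.96 to 43.9 CPM. Of 13 glial genes, 8 were called lower and none higher, with a median of -0.86. S100b had from 1.97 to 4.85 CPM in C57BL/6 (median 2.39) and from 0.431 to 1.81 CPM in Winnie (median 0.715). S100b, a calcium-binding marker of enteric glia, fell by 1.32 ± 0.32 (SE; adjusted p = 0.0106) without overlap. Gfap had from 1.85 to 7.14 CPM in C57BL/6 (median 2.77) and from 0.489 to 2.07 CPM in Winnie (median 1.04). Gfap, a glial filament, fell by 1.45 ± 0.302 (SE; adjusted p = 0.00553). Erbb3, which epithelium also expresses, had 0.005 ± 0.17 (SE; adjusted p = 0.988). C57BL/6 replicate 7 had 15.18 CPM of Nefl, 4.854 CPM of S100b and 7.136 CPM of Gfap. The other C57BL/6 mice had at most 8.387, 2.837 and 3.47 CPM of these. Without C57BL/6 replicate 7, 22 neuronal and 5 glial genes were called lower. The glial count was also 5 without C57BL/6 replicate 4 or 8 and 4 without C57BL/6 replicate 6 or Winnie replicate 1, 2, 4 or 6, while the neuronal count was 19 or more without any 1 library.

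**Figure D3:**
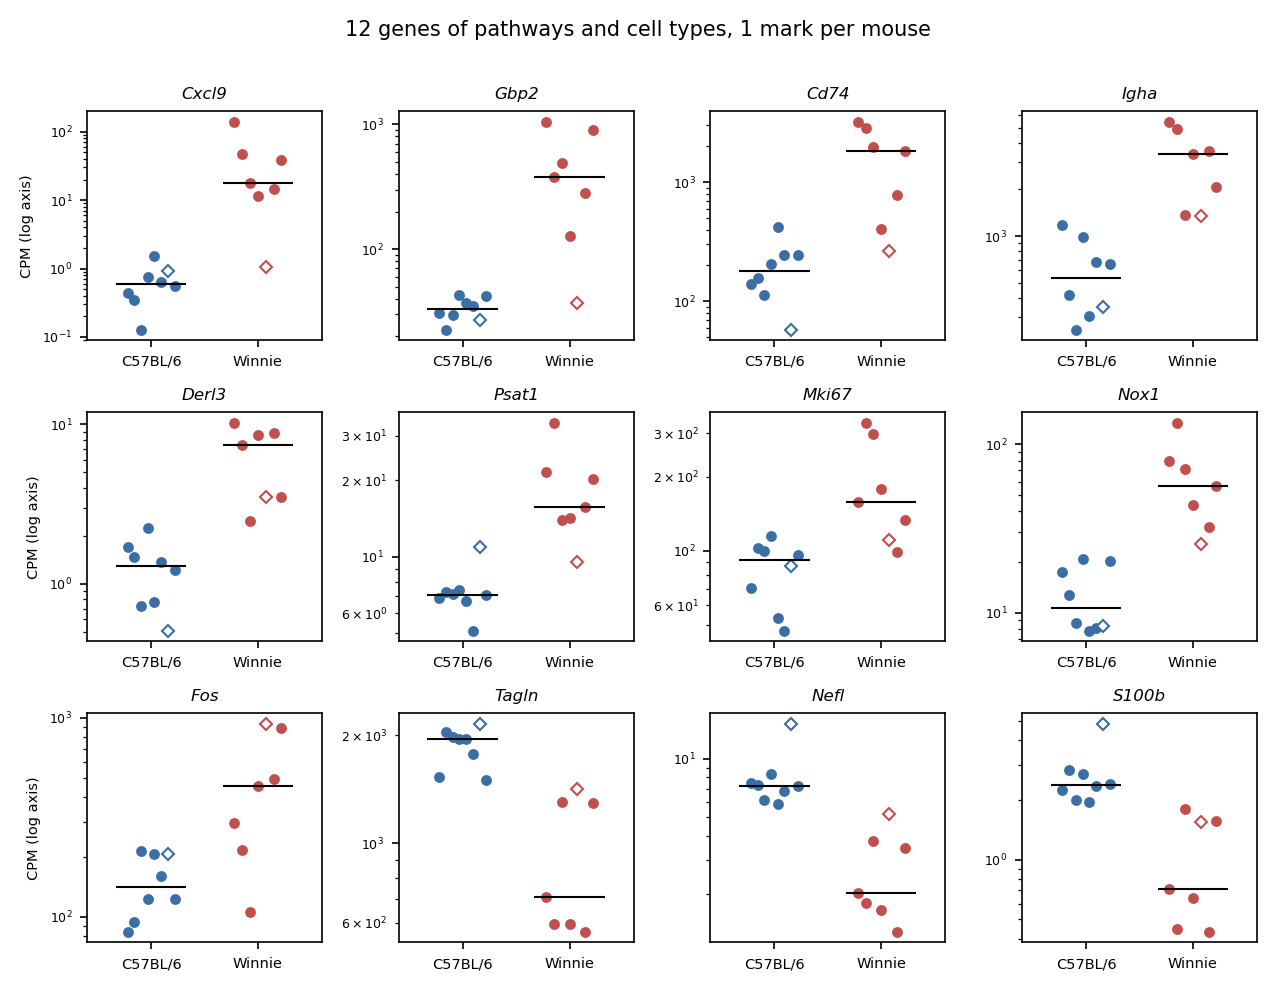
CPM (log axis) of 12 genes in 8 C57BL/6 (blue) and 7 Winnie (red) mice, 1 mark per mouse, with the group median as a line; open diamonds are C57BL/6 replicate 7 and Winnie replicate 5. Winnie replicate 5 lies with C57BL/6 for Cxcl9 and Gbp2, apart from C57BL/6 for Igha, Derl3 and Nox1, and at the top of its group for Fos.

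Other cells of the wall had calls in few members. Of 13 pacemaker and PDGFRa cell genes, 3 were called lower, among them Kcnn3 at -1.28 ± 0.34 (SE; adjusted p = 0.0144) and Etv1 at -0.96 ± 0.28 (SE; adjusted p = 0.0214), and 1, Bmp5, higher at 0.64 ± 0.18 (SE; adjusted p = 0.0204) but not without C57BL/6 replicate 7 or Winnie replicate 6. Ano1, the chloride channel of pacemaker cells, had 0.11 ± 0.23 (SE; adjusted p = 0.743). Of 26 matrix and fibroblast genes, 3 were called lower (11.54%) and 2 higher (7.69%), with a median of 0.02. These are near the shares over all genes, 8.53% lower and 7.42% higher. Lum had from 37.1 to 65.9 CPM in C57BL/6 (median 41.3) and from 12.8 to 32.5 CPM in Winnie (median 19). Lum, a proteoglycan that spaces collagen fibrils, fell by 1.100 ± 0.16 (SE; adjusted p = 0.00128) with no overlap, Fbln1 by 0.77 ± 0.16 (SE; adjusted p = 0.00517) and Dcn by 0.66 ± 0.18 (SE; adjusted p = 0.0169), the last not called without Winnie replicate 6. Mmp10 and Mmp13, matrix proteases, were the increases, with Mmp10 at 2.98 ± 0.64 (SE; adjusted p = 0.0062). Winnie replicate 2 was the highest for Mmp10, and without it the change was 1.62 (adjusted p = 0.00458). Col3a1, a fibrillar collagen, had 0.04 ± 0.19 (SE; adjusted p = 0.905). Of 18 genes of endothelium and leukocyte adhesion, only Icam1 was called, higher by 1.28 ± 0.297 (SE; adjusted p = 0.0085). That is 5.56% higher, where 7.42% of all genes were. The count was 2 or 3 without C57BL/6 replicate 5 or Winnie replicate 1, 3, 4, 5 or 7. Pecam1, which marks all endothelium, had 0.15 ± 0.21 (SE; adjusted p = 0.613).

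Blood, fat and serosa varied widely within groups. Of 7 red cell genes listed, 5 were tested and all 5 were called lower, with a median of -3.08. In males 4 of 6 tested were called lower, with a median of -3.21. In females without Winnie replicate 5 and C57BL/6 replicate 7, 0 of 5 were called, with a median of -2.96. Hba-a1 had from 6.41 to 190.2 CPM in C57BL/6 (median 69.1) and from 1.81 to 21.5 CPM in Winnie (median 6.83). Only 2 of 7 Winnie mice lay below every C57BL/6 mouse, and C57BL/6 replicate 7 was the lowest of its group. Hba-a1 and Hbb-bs, globin chains, fell by 2.900 ± 0.75 (SE; adjusted p = 0.0131) and 2.56 ± 0.73 (SE; adjusted p = 0.0195). Of 11 adipocyte genes none was called, with Adipoq at -0.92 ± 0.77 (SE; adjusted p = 0.387). Of 7 mesothelium genes tested none was called, although their median log2 fold change was -2.18. Wt1 and Upk3b, which mark the serosal lining, had -2.198 ± 0.93 (SE; adjusted p = 0.0896) and -2.19 ± 1.100 (SE; adjusted p = 0.148). Of 12 genes of position along the colon none was called. Hoxa10 was below the C57BL/6 range in all 7 Winnie mice, at -0.44 ± 0.11 (SE; adjusted p = 0.0106), within the 1.5-fold limit.

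Metabolic lists had few calls. Of 29 tryptophan, kynurenine and serotonin genes, 22 passed the filter and 3 were called higher, Ido1, Wars and Ahrr. Ido1 had from 0.708 to 4.52 CPM in C57BL/6 (median 2.23) and from 0.558 to 302 CPM in Winnie (median 42.8). Ido1, which opens the kynurenine pathway, rose by 5.34 ± 0.898 (SE; adjusted p = 0.00214), with 6 Winnie mice above C57BL/6 and Winnie replicate 5 below it, and without Winnie replicate 1 the change was 4.61 (adjusted p = 0.00526). Wars had from 89.3 to 114 CPM in C57BL/6 (median 99) and from 99.2 to 753 CPM in Winnie (median 311). Wars, the tryptophan tRNA ligase, rose by 2.01 ± 0.302 (SE; adjusted p = 0.00132). Maoa, which degrades serotonin, had -0.44 ± 0.12 (SE; adjusted p = 0.0195), past the p limit and not the fold limit. Of 28 nicotinamide and NAD genes, 3 were called higher. Nampt had from 63.98 to 91.5 CPM in C57BL/6 (median 75.3) and from 67.8 to 192 CPM in Winnie (median 122). Nampt, the enzyme of NAD salvage, rose by 0.82 ± 0.17 (SE; adjusted p = 0.00479), Cd38, which consumes NAD, by 0.89 ± 0.16 (SE; adjusted p = 0.0034) and Parp14, an ADP-ribosyltransferase, by 1.21 ± 0.22 (SE; adjusted p = 0.0034). The summed list had 1209 to 1346 CPM in C57BL/6 and 1371 to 1810 CPM in Winnie, without overlap, while 18 of its 28 log2 fold changes were negative and 16 intervals lay within 1.5-fold.

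Genes of energy metabolism were seldom called. Of 28 nuclear genes of the respiratory chain none was called and 26 intervals lay within 1.5-fold. Of 13 mitochondrial ones none was called and 8 intervals did. Of 26 genes of butyrate uptake and fatty acid oxidation, 2 were called lower (7.69%), near the 8.53% of all genes. They were Pdk4, by 1.402 ± 0.44 (SE; adjusted p = 0.0302), and Ppara, by 0.69 ± 0.23 (SE; adjusted p = 0.0403). Pdk4 had from 3.08 to 22.2 CPM in C57BL/6 (median 3.92) and from 1.22 to 4.05 CPM in Winnie (median 1.64). C57BL/6 replicate 7 was the highest for Pdk4, and without it the change was -0.77 (adjusted p = 0.0348). Of the 15 fits that left out 1 library, Pdk4 kept its call in 10, all but those without Winnie replicate 1, 2, 4, 6 or 7, and Ppara in 7, with losses without C57BL/6 replicate 3, 5, 6 or 7 or Winnie replicate 1, 2, 6 or 7. Slc16a1, a butyrate transporter, had -0.25 ± 0.16 (SE; adjusted p = 0.252). Of 22 genes of glycolysis and hypoxia, 2 were called higher (9.09%), near the 7.42% of all genes. Hif1a had from 142 to 378 CPM in C57BL/6 (median 289) and from 298 to 691 CPM in Winnie (median 410.1). Hif1a, the oxygen-regulated transcription factor, rose by 0.82 ± 0.22 (SE; adjusted p = 0.0163), and the other was Hk2. The count of 2 was 1 in 8 of the fits that left out 1 library (C57BL/6 replicates 3 to 7 and Winnie replicates 1, 2 and 7). Ldha and Pkm, abundant enzymes of glycolysis, had 0.04 ± 0.09 (SE; adjusted p = 0.742) and 0.17 ± 0.098 (SE; adjusted p = 0.218). Of 29 detoxification genes, 1 rose and 1 fell, with 4 higher without C57BL/6 replicate 7, 2 lower without C57BL/6 replicate 5 and 5 lower without Winnie replicate 5. Ugdh had from 259 to 558 CPM in C57BL/6 (median 359.8) and from 91.2 to 241 CPM in Winnie (median 149). Ugdh, which makes the glucuronic acid donor, fell by 1.16 ± 0.21 (SE; adjusted p = 0.00262), and all 7 Winnie mice were below C57BL/6, and Gsta3, a glutathione transferase, rose by 1.16 ± 0.297 (SE; adjusted p = 0.0129). Cyp2c55 spread from 11.6 to 1164 CPM in Winnie and from 331 to 3166 CPM in C57BL/6, and its -1.29 ± 0.82 (SE; adjusted p = 0.253) was not called. Of 17 genes of arginine, polyamines and metals, 2 rose, the zinc importer Slc39a4 by 0.97 ± 0.19 (SE; adjusted p = 0.00467) and Srm, spermidine synthase, by 0.61 ± 0.18 (SE; adjusted p = 0.025), which kept its call in 9 of 15 fits and not without C57BL/6 replicate 1, 3, 4 or 5 or Winnie replicate 1 or 2.

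Where the average log2 CPM reached 2, the 10 largest increases were 4 interferon genes already given (Cxcl9, Tgtp1, Ido1 and Iigp1), Gm4951, Clca4b, Sprr2h and 3 immunoglobulin genes, and they ran from 4.88 to 7.77 on the log2 scale. Ighv14-3 and Ighv1-7 had Winnie values that spread from 0.90 to 149 CPM and from 0.67 to 46.8 CPM. Their log2 fold changes were 5.67 ± 1.27 and 5.002 ± 0.92, and 2.08 (adjusted p = 0.0209) without Winnie replicate 1 and 3.65 (adjusted p = 0.00542) without Winnie replicate 2, both below the range of these 10. The 10 largest decreases included 3 globin genes. Fndc5 had from 4.51 to 19.4 CPM in C57BL/6 (median 8.46) and from 0.641 to 3.58 CPM in Winnie (median 0.935). Fndc5, a membrane protein with a fibronectin domain, fell by 2.77 ± 0.43 (SE; adjusted p = 0.00153), with no overlap. Igf2bp2 had from 19.1 to 64.8 CPM in C57BL/6 (median 25.9) and from 2.85 to 11.1 CPM in Winnie (median 5.67). Igf2bp2, an RNA-binding protein of insulin-like growth factor messages, fell by 2.27 ± 0.37 (SE; adjusted p = 0.00186), also with no overlap. Mal had from 3.58 to 131 CPM in C57BL/6 (median 8.47) and from 1.24 to 5.398 CPM in Winnie (median 1.93). For Mal, a membrane trafficking protein, Colec10 and Pcsk5, the size of the change rested on C57BL/6 replicate 7. The log2 fold change of Mal was -3.06 ± 0.79 with it and -1.45 ± 0.33 (SE; adjusted p = 0.00806) without it. The call of Pcsk5 was lost without Winnie replicate 1, 6 or 7. The changes of Colec10 and Pcsk5 were -2.99 ± 0.75 and -2.504 ± 0.78 with it and -1.43 ± 0.24 (SE; adjusted p = 0.00187) and -0.78 ± 0.28 (SE; adjusted p = 0.0483) without it. Mettl7a2 had 0.0725 CPM against 12.7 to 23.6 CPM in C57BL/6 replicate 7 and the other C57BL/6 mice and fell by 2.15 ± 0.63 (SE; adjusted p = 0.0221).

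**Figure D4:**
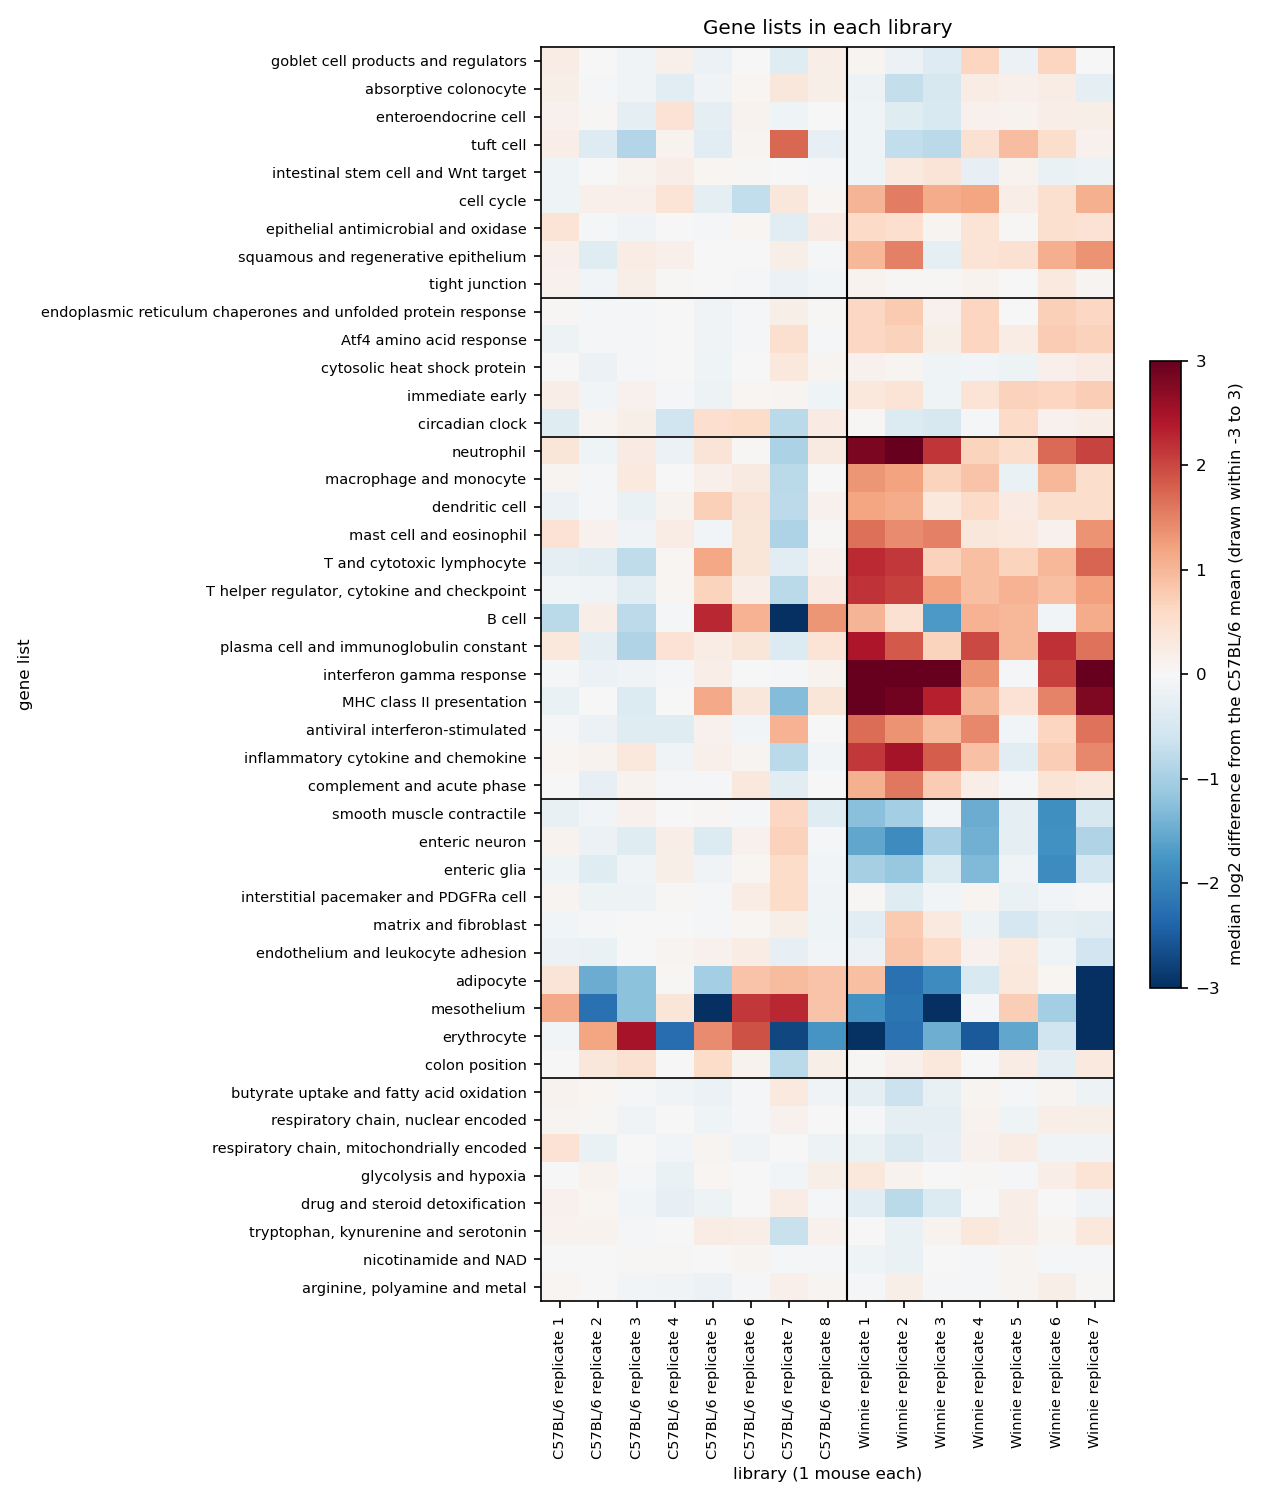
Median log2 difference from the C57BL/6 mean over the tested members of each of 45 gene lists (rows) in each library (columns), from blue (lower) to red (higher), drawn within -3 to 3. Interferon gamma genes are near 0 in Winnie replicate 5 (-0.06) and in C57BL/6 and raised in the other 6 Winnie mice, while neuron genes are lowered in those 6; C57BL/6 replicate 7 stands apart for tuft cell, B cell and colon position genes.

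Winnie mice differed in which lists they shared, and Winnie replicate 5 was beyond the C57BL/6 range for the fewest called genes. Of the 1282 genes called higher, 214 in this library lay above all C57BL/6 libraries, against 721 to 1214 in the other 6, and of 1475 called lower, 247 lay below, against 786 to 1346. Interferon gamma genes were not raised in it, with 1 of 26 above the C57BL/6 range against 24 to 26 in each other Winnie mouse, and a median difference from the C57BL/6 mean of -0.06 against 2.72. MHC class II showed 0 of 7, cell cycle 0 of 28, antiviral genes 0 of 16, endoplasmic reticulum chaperones 1 of 14, macrophage genes 1 of 15 and neuronal genes 1 of 23 in the called direction. Other Winnie mice also lacked parts of these lists, with 4 of 28 cell cycle genes above the range in Winnie replicate 6 and 3 of 7 MHC class II genes in Winnie replicate 4. Other groups did depart from C57BL/6 in Winnie replicate 5. Of 15 called plasma cell and antibody genes 8 were above the range, with a median difference of 1.19 against 2.23 in the other 6. Of 14 called Atf4 genes 5 were above, of 10 called T helper and checkpoint genes 4, as many as in Winnie replicate 4, and of 5 called heat shock genes 3 were below. All 5 called immediate early genes were above, with a median difference of 1.68 against 0.84. Among 17289 genes tested, the other 6 Winnie mice were all beyond the C57BL/6 range and this one was not for 361 above and 783 below. This library was picked as the closest to the C57BL/6 mean, and no such count is given for another Winnie mouse.

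Leaving Winnie replicate 5 out raised the counts. At the strict limit 436 genes were then higher (2.5% of 17413 tested) and 241 lower (1.38%), and at the wider limit 1600 (9.19%) and 2070 (11.9%). All 16 strict genes were among the 677, and 2741 of the 2757 wider calls were kept. For 6 genes named above the log2 fold changes were larger in size and the adjusted p smaller without it. For Cxcl9 the change without this mouse was 6.19 (adjusted p = 2.96e-05), for Gbp2 4.11 (adjusted p = 1.73e-05), for Derl3 2.56 (adjusted p = 0.000318), for Mki67 1.31 (adjusted p = 0.00135), for Tagln -1.05 (adjusted p = 0.00163) and for Nefl -1.71 (adjusted p = 0.000574). The median within-group SD of Winnie went from 0.30 to 0.28. Lists gained a few members, with 19 endoplasmic reticulum genes in place of 14, 18 macrophage genes in place of 15, 30 cell cycle genes in place of 28 and 11 cytokine genes in place of 7. Mesothelium went from 0 to 3 called lower. The tryptophan, NAD and arginine lists, with 22, 28 and 17 tested, each went from 0 to 2 called lower. None of these 3 lists exceeded the 11.9% of all genes. The library was chosen by its own values, so these fits describe how much 1 mouse weighs and are not independent support.

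Leaving C57BL/6 replicate 7 out gave 1403 genes higher (8.16%) and 1400 lower (8.14%), and 2388 of the 2757 calls were shared. Antiviral genes went from 16 to 20 called higher, and tuft cell and enteroendocrine genes from 0 to 2. Antimicrobial genes and arginine genes went from 0 to 2 called lower. Interferon gamma genes stayed at 26 of 26 with either library out.

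**Figure D5:**
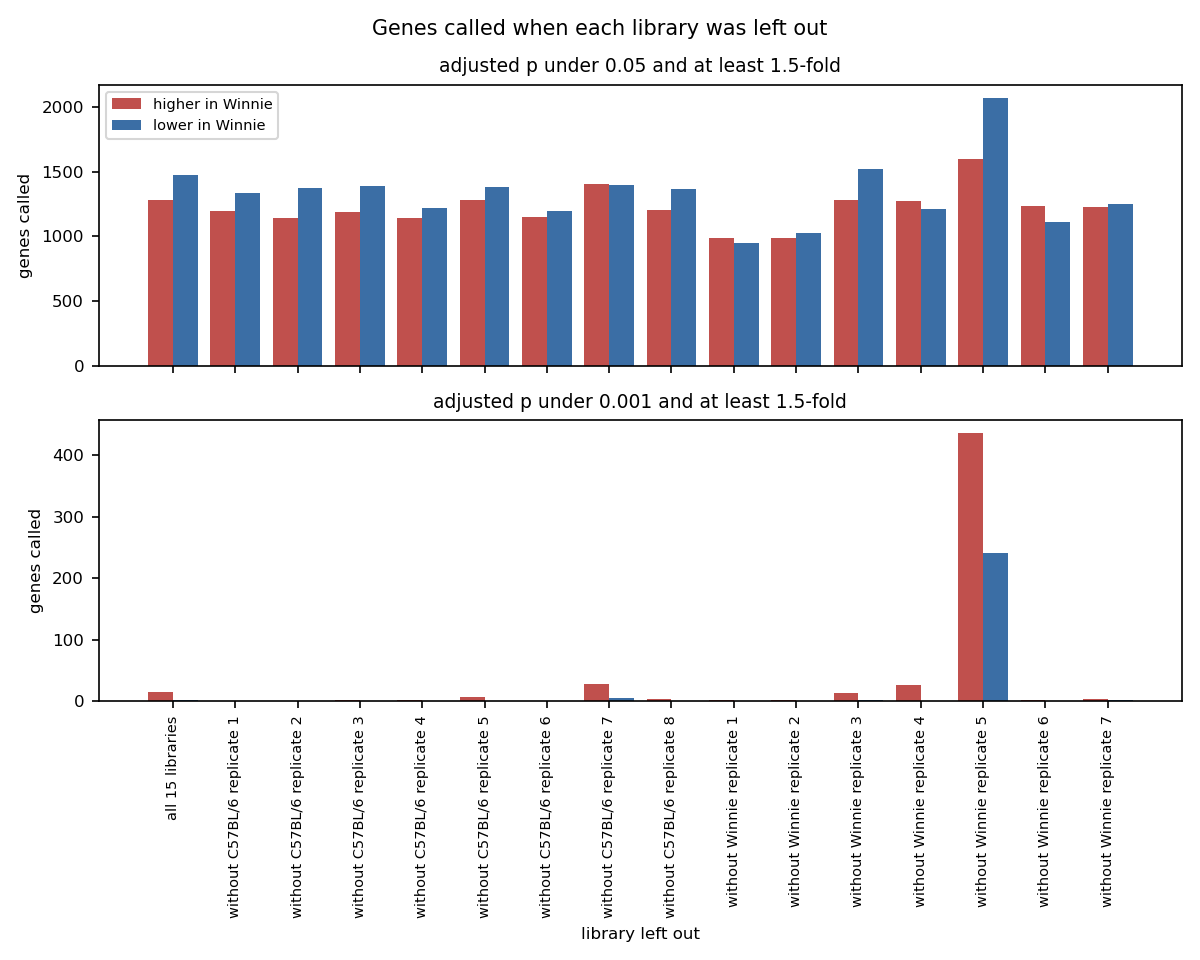
Number of genes called higher (red) and lower (blue) in Winnie with all 15 libraries and with each library left out in turn, at the wider limit (top) and the strict limit (bottom). Strict counts are at most 27 higher except without Winnie replicate 5, when they are 436 higher and 241 lower.

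Males and females were also fitted apart. In males, 4 against 3, 2071 genes were called higher (11.8% of 17574) and 1885 lower (10.7%). In females, 4 against 4, 1 gene was called higher (0.00579%) and 0 lower (0%), with 3314 at an unadjusted p under 0.05. With Winnie replicate 5 and C57BL/6 replicate 7 left out, females, then 3 against 3, gave 1013 higher (5.86%) and 1393 lower (8.06%). Interferon gamma genes were called higher in 26 of 26 in males, with a median of 3.47, and in 23 of 26 in those females, with a median of 2.28. Cell cycle genes were called in 33 of 35 and 25 of 35, and neuronal genes lower in 20 and 19 of 25. T and cytotoxic lymphocyte genes had medians of 2.41 in males and 0.69 in those females, and complement genes were called in 11 of 18 and 1 of 19. Dendritic cell genes were called higher in 8 and 1 of 16, and enteroendocrine genes lower in 7 and 2 of 17. Detoxification genes were called lower in 9 and 1 of 29, and absorptive colonocyte genes in 9 and 2 of 23. Inflammatory cytokines and chemokines had 16 and 6 called higher. The difference between sexes was tested gene by gene by the interaction of sex and group, which called 47 genes (0.272%). Of the 47, 41 had the more negative change in males, and 4 belonged to a list, Il18, Ndufa1, Tph1 and Klf2, named here since they are so few. No T cell, complement, goblet cell or dendritic cell gene was among them. The 5 with the smallest p were Gm14303, Hist1h2bc, Smim22, Alkbh7 and Smim6, and each was lower in Winnie males than in C57BL/6 males. Gm14303 had 131 ± 8.77 CPM (SD, n = 3) in Winnie males and 287 ± 28.3 CPM (SD, n = 4) in C57BL/6 males, and 233 ± 9.26 and 237 ± 19.2 CPM (SD, n = 4 each) in females. Hist1h2bc, a histone gene, had 42.2 ± 2.06 and 87.1 ± 5.34 CPM in males and 88.0 ± 13.7 and 77.9 ± 11.5 CPM in females, in the same order. The count of interactions changed with single libraries and with the method, from 0 to 358 when 1 library was left out. In Winnie the females carry consecutive numbers in their labels and the males carry others. Sex and anything that goes with those numbers cannot be told apart there.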

How the data were processed

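Poly(A) mRNA of distal colon was sequenced by the authors on an MGI platform, and the deposited values are raw read counts per gene. The submitters' processing notes name STAR, featureCounts, limma and build GRCm38. The strand setting, annotation release and treatment of multi-mapped reads were not given in the sources used here, so near-identical and overlapping genes are uncertain. The study names 2 RNA kits in different places and fewer Winnie mice in its methods than there were libraries here, and all 7 were used.

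Counts of 15 libraries were filtered with filterByExpr, scaled by TMM and tested with the quasi-likelihood F test of edgeR 4.0.16 in R 4.3.3, with Benjamini-Hochberg adjustment. Printed CPM are counts over each library's total without the TMM factor, which enters only the fits and log2 values from them, and each SE is the log2 fold change divided by the root of F. Alternatives used limma 3.58.1 and DESeq2 1.42.0, other scalings and filters, 3 groups in one fit, sex as a covariate, each sex alone and each library left out. The scripts were tested on simulated data. No 2 libraries of a group agreed within counting noise, with a lowest chi-square per degree of freedom of 28.83.

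The 45 gene lists and the naming rule were chosen with earlier results of these data known. Named genes are those past the strict limit, the 10 largest changes each way with average log2 CPM of at least 2, the 4 members per list with the smallest p and the 4 with the highest mean CPM, Muc2 and the 5 smallest interaction p. Names outside it complete a list's called set or, as with Cr2, were chosen after their values were seen. Gene positions are those of GENCODE M21 (GRCm38), and promoters those of RefSeq. Replicate numbers follow accession order and pair nothing. Results for a few genes that the rule names are not reported here.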

Additional observations from a re-analysis of the deposited data

Results flagged for a closer look

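Single libraries far from the rest of their group were found in 22 of 214 groups of values tested by Dixon's test at the 95% level, where chance flags about 1 in 20. Of these, 16 were C57BL/6 replicate 7. On the log2 CPM scale that library was high for Muc2 (12.9), Krt20 (11.1), Cpe (8.07), Cnn1 (10), Stmn2 (5.33), Nefl (3.92), Gfap (2.84), S100b (2.28), Lum (6.04) and Mal (7.03). It was low for Fcgr1 (-0.699), Csf3r (-1.98), Ly6g (1.93), Hoxb13 (4.04) and Hoxd13 (-2.2). The log2 summed CPM of the smooth muscle list was 14.4 in it, the highest of its group. Winnie replicate 5 was low for Slpi (3.08) and high for Vip (4.86), and Winnie replicate 6 was low for Hoxa10 (4.87). In C57BL/6, replicate 3 was low for Ctla4 (-4.98), replicate 5 high for Foxp3 (-0.173) and replicate 4 high for Calr (9.74). That Ctla4 value, 0.0317 CPM, lies below the 0.0952 CPM that a count of 0 allows in its library.

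The interaction of sex and group (edgeR) called 47 genes. The count ran from 0 to 358 with 1 library left out, and it was 0 with 3 groups in one fit. The male change minus the female change was -1.21 for Gm14303, -1.31 for Hist1h2bc, -1.2 for Smim22, -0.952 for Alkbh7 and -1.03 for Smim6 on the log2 scale.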

How the results depend on the processing

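Of the 332 named genes, 167 were called at the wider limit and 0 of these changed direction under the alternatives that kept both sexes. With limma-voom 36 named genes fell below the strict or wider limit they had passed, and 3 passed a limit they had not. These numbers were 17 and 2 with library size alone and 16 and 1 with at least 10 counts in every library. Of the 165 not called, 33 changed direction under at least 1 of them, 12 without C57BL/6 replicate 7, and 0 of the 33 was called in its new direction. The count of 15 genes higher at the strict limit was 7 with library size alone, 771 with DESeq2, 64 without a filter, 174 with 3 groups in one fit, 112 in males and 614 without Winnie replicate 5 and C57BL/6 replicate 7 together, a choice made after seeing the data. It was 0 with limma-voom (6934 genes at an unadjusted p under 0.05), with at least 10 counts in every library (5952), in females (3314) and in females without both libraries (6145). With 1 library left out it ran from 0 to 436, and it was 0 without C57BL/6 replicate 1, 2 or 6 (6566, 6386 and 6361 at an unadjusted p under 0.05). The count of 1 gene lower was 464, 4, 25, 18 and 387 with DESeq2, no filter, 3 groups, males and both libraries out, 2 with sex as a covariate, and 0 with limma-voom, at least 10 counts, females, and females without both. With 1 library left out it ran from 0 to 241. At the wider limit, genes higher were 2071 in males, 1 in females, 686 at 2-fold or more and 2387 without a fold limit. Genes lower were 0 in females, 709 at 2-fold or more, and 946 (without Winnie replicate 1) to 2070 (without Winnie replicate 5) with 1 library left out. The 47 interactions were 3 with library size alone, 861 with DESeq2, 6 without a filter and 0 with 3 groups (2418 at an unadjusted p under 0.05), and 0 (without Winnie replicate 2, with 1955 at an unadjusted p under 0.05) to 358 (without Winnie replicate 1) with 1 library left out. The causes of these shifts were not tested. Library size alone moved the median log2 fold change of all genes from -0.01 to -0.09. No paired analysis was possible because replicate numbers follow accession order and the labels tie no Winnie mouse to a C57BL/6 mouse. Counts of 25.4 to 36.3 M limit what can be said of genes near 0.0825 to 0.118 CPM.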
